A study of Mus musculus with 36 samples.

Results

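Kirrel2, Hif3a, Gpt2 and Plekhf1 are 4 genes outside the circadian clock whose RNA was higher around and after ZT 12 than around ZT 0 to 4 in an SCN-enriched region of the mouse brain, under both diets of the study. They were chosen from these data as genes with fitted 24 h peaks at ZT 13 to 16 in both diets, and all 4 have a row in both deposited tables, 4 of 24883 rows (24346 distinct gene symbols). Their level by time of day in each diet is therefore a description and carries no test. In the fits made here Gpt2 peaked at ZT 16.4 under normal chow, just outside that window, and it is kept as the list gives it.

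Kirrel2 encodes a cell adhesion protein of the immunoglobulin superfamily, related to nephrin of the kidney slit diaphragm. Hif3a encodes an alpha subunit of the hypoxia-inducible factors, basic helix-loop-helix PAS proteins that pair with ARNT on DNA and whose alpha subunits are marked for destruction when oxygen is plentiful; some forms of HIF-3 alpha restrain the other alpha subunits. Gpt2 encodes the mitochondrial alanine transaminase, which exchanges an amino group between alanine and 2-oxoglutarate to give pyruvate and glutamate. Plekhf1 encodes a small protein with a PH and a FYVE domain, the latter a module that binds the phosphoinositide PI3P on endosomes, and the protein has been tied to lysosomes and cell death. The suprachiasmatic nucleus (SCN) is the hypothalamic pacemaker that keeps the body's daily rhythms in step with light.

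Adult C57BL/6J mice, with no genetic change named in the labels, received either normal chow or high-fat feed for 10 weeks, and RNA of the SCN-enriched region was sequenced at 6 time points, ZT 0, 4, 8, 12, 16 and 20. Zeitgeber time (ZT) counts hours from lights on by convention. Each of the 12 groups holds 3 libraries, 36 in all and 18 per diet. Nothing in the labels states that replicate libraries are separate animals, so p-values measure only the spread between these libraries, which may be technical. The values of each diet stand in a separate deposited table, and an effect of the table cannot be told apart from one of diet.

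Levels are FPKM (fragments per kilobase of transcript, scaled to library size) rescaled to sum to 1000000 in each library, called rescaled FPKM below, and differences are on the scale of log2(rescaled FPKM + 1), which understates changes at low levels. Folds of fitted curves, 12 h terms and diet differences are likewise folds of rescaled FPKM + 1. They are compressed most for Hif3a and Kirrel2, the genes with the lowest levels. The library depth, estimated from the steps between low values, varied 1.97-fold, with a relative median of 1.01 under chow and 1.0 under the high-fat diet. On a rough estimate of library size from the same steps, Kirrel2 had a median of 53.9 fragments per kilobase, Hif3a 38.5, Plekhf1 109 and Gpt2 767. The lowest library had 7.09 fragments per kilobase for Hif3a and 18.1 for Kirrel2, so the low values of these genes rest on few fragments.

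All 10 SCN markers were detected in every library. Avp, the vasopressin gene, had a median of 1579 rescaled FPKM (234.4 to 4301) and Vip, another SCN neuropeptide gene, 24.21 (6.296 to 134.6), a range of more than 10-fold for each. Of the libraries that stood apart, chow ZT 0 replicate 1 was rich in liver transcripts, with 6166 for the summed list against a median of 487.7, and Alb, the albumin gene, was also above 10 times its median in chow ZT 4 replicate 1 and high-fat ZT 0 replicate 3. Transcripts typical of the striatum, a forebrain region, were above 4 times their median of 128.8 in chow ZT 12 replicate 3 (1163) and high-fat ZT 16 replicate 3 (1619). In bulk tissue, fewer cells of a type and less RNA per cell cannot be told apart.

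The genes lie on chromosomes 7 and 8 (GRCm38, GENCODE M21). Kirrel2 (ENSMUSG00000036915.17) spans chr7:30447534-30457690 on the minus strand and stands head to head with Nphs1, the nephrin gene, 624 bases away on the plus strand. Hif3a (ENSMUSG00000004328.15) spans chr7:17031507-17062427 and Plekhf1 (ENSMUSG00000074170.5) chr7:38216972-38228016, both on the minus strand, and Gpt2 (ENSMUSG00000031700.11) spans chr8:85492576-85527560 on the plus strand. The annotated gene 4833404L02Rik (chr7:17058534-17059441, plus strand) lies inside the span of Hif3a on the opposite strand and has no row of its own, and whether the authors' quantification used strand is not given in the sources used here. Because the genes were picked for a shared time of day, their RefSeq promoters (GRCm38.p6, 250 bases before to 50 after the start, read in the direction of the gene) are shown side by side. They are chr7:30457466-30457765 for Kirrel2, chr7:17062378-17062677 for Hif3a, chr7:38227945-38228244 for Plekhf1, all on the minus strand, and chr8:85492326-85492625 on the plus strand for Gpt2. Capitals mark the hypoxia response cores ACGTG and GCGTG and the CCAAT box, on either strand.
Kirrel2: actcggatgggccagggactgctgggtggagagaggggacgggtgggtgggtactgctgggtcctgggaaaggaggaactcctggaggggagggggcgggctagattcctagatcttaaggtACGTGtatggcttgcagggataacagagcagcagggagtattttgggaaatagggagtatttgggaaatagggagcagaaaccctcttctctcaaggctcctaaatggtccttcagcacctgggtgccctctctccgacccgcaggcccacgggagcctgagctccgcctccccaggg
Hif3a: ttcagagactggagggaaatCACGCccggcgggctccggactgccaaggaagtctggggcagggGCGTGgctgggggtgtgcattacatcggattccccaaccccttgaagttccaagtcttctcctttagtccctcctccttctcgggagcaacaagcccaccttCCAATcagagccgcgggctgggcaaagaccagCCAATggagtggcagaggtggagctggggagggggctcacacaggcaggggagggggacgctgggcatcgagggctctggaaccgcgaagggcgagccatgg
Gpt2: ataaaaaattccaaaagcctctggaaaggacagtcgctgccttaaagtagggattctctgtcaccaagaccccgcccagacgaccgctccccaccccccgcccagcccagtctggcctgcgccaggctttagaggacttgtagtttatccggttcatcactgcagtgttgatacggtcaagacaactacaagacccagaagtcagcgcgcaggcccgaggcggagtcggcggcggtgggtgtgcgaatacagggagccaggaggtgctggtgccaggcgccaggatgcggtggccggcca
Plekhf1: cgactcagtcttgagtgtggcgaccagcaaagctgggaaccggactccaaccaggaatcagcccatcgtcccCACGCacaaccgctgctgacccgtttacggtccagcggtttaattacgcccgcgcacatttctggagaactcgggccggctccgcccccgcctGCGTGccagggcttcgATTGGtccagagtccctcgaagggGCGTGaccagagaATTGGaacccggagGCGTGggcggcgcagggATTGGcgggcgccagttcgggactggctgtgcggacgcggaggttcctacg

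The GC content of the 4 promoters was 59.7% for Kirrel2, 63.7% for Hif3a, 60.3% for Gpt2 and 65.0% for Plekhf1. The median was 52.7% (quartiles 45.7% and 61.7%) over 32851 RefSeq promoters of the same length. All 4 were above that median, but only Hif3a and Plekhf1 were above the upper quartile. No searched motif was present in all 4 of them. The core ACGTG occurred in Kirrel2, and in 19.6% of all promoters. The form GCGTG occurred in Hif3a and Plekhf1, and in 32.4% of all promoters, and CCAAT occurred in the same pair, and in 37.4% of all. The GC box GGGCGG, not capitalised, occurred in Kirrel2, Gpt2 and Plekhf1, and in 35.7% of all. The glucocorticoid receptor core AGAACA (19% of all promoters), the full glucocorticoid response element, which is that core, 3 free bases and its reverse complement (0.00913%), the E-box CACGTG (7.15%) and the D-box TTACGTAA (0.119%) occurred in none of the 4. All motifs were searched on both strands, ACGTG is contained in the E-box and can overlap a D-box, and a match or its lack describes the letters of these windows only.

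Kirrel2 was lowest at ZT 4 and highest at ZT 12 to 16 in both diets. Under chow its rescaled FPKM in the 3 libraries of each time point was 2.94, 3.10 and 2.56 at ZT 0, 1.48, 1.98 and 1.501 at ZT 4, 2.27, 1.77 and 3.95 at ZT 8, 4.48, 4.63 and 8.14 at ZT 12, 6.77, 3.97 and 5.21 at ZT 16 and 5.20, 4.03 and 3.81 at ZT 20. Under the high-fat diet it was 1.68, 2.19 and 3.68 at ZT 0, 2.01, 1.89 and 0.953 at ZT 4, 2.58, 3.14 and 2.54 at ZT 8, 2.61, 4.12 and 6.26 at ZT 12, 5.70, 6.96 and 10.5 at ZT 16 and 4.87, 3.94 and 2.96 at ZT 20. Under chow the ZT 12 mean of 5.75 ± 2.07 (SD, n = 3) was 3.48 times the ZT 4 mean of 1.65 ± 0.286, and under the high-fat diet the ZT 16 mean of 7.72 ± 2.49 was 4.77 times the ZT 4 mean of 1.62 ± 0.580. In neither diet did the libraries of the highest and the lowest time point overlap. These were picked as the extremes of 6 time points, so a gap between them is likely from the choice alone. The same holds for the gaps given for the other genes below, and the share of all genes with such gaps was not counted. Comparing each library of ZT 12 to 20 with each of ZT 0 to 8, the later one was higher in 80 of 81 pairings under chow and in 77 of 81 under the high-fat diet.

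The highest Kirrel2 value of each diet came from the library rich in striatal transcripts, 8.14 in chow ZT 12 replicate 3 and 10.5 in high-fat ZT 16 replicate 3. The summed striatum list (7 of 8 listed symbols with a row, none at 0 in all libraries) ran from 74.16 to 1163 over the chow libraries and from 85.71 to 1619 over the high-fat libraries, and its group mean was highest at the same time points as that of Kirrel2, ZT 12 under chow and ZT 16 under the high-fat diet. Without both libraries, the highest Kirrel2 mean was at ZT 16 in both diets, 5.32 under chow and 6.33 (n = 2) under the high-fat diet, which is 3.22 and 3.91 times the ZT 4 mean. The fitted 24 h peak-to-trough difference (log2) was then 1.18 under chow and 1.30 under the high-fat diet, against 1.27 and 1.47 with all libraries. The fitted peak was then at ZT 16.16 under chow, later than ZT 16, and at ZT 15.65 under the high-fat diet. With all libraries it was at ZT 15.7 in both diets.

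Hif3a had the lowest level of the 4 genes and the largest ratio between its highest and lowest group means. Under chow the libraries gave 0.461, 0.582 and 0.739 at ZT 0, 1.61, 0.736 and 1.08 at ZT 4, 1.37, 1.43 and 2.19 at ZT 8, 2.89, 5.07 and 5.46 at ZT 12, 1.25, 2.36 and 2.82 at ZT 16 and 4.30, 4.08 and 3.71 at ZT 20. Under the high-fat diet they gave 0.901, 0.545 and 1.09 at ZT 0, 1.64, 1.34 and 1.25 at ZT 4, 2.88, 5.07 and 1.72 at ZT 8, 2.83, 4.77 and 6.08 at ZT 12, 2.59, 5.34 and 3.76 at ZT 16 and 2.72, 2.83 and 2.58 at ZT 20. The lowest mean was at ZT 0 in both diets, 0.594 ± 0.139 under chow and 0.846 ± 0.278 under the high-fat diet (SD, n = 3), and the highest at ZT 12, 4.48 ± 1.38 and 4.56 ± 1.63, 7.54 and 5.39 times as high. The ZT 0 and ZT 12 libraries, picked as the lowest and highest time points, did not overlap in either diet. The highest chow value, 5.46, came from the library rich in striatal transcripts, and without it the chow mean was 3.98 (n = 2) at ZT 12 and highest at ZT 20, where 4.03 was 6.78 times the ZT 0 mean. Under chow the course was not smooth: the mean of 2.14 ± 0.810 at ZT 16 lay below those of ZT 12 and ZT 20 (4.03 ± 0.298), and the ZT 16 libraries did not overlap with either. Under the high-fat diet the ZT 8 libraries spread from 1.72 to 5.07, so that 1 of them was above most libraries of ZT 12 to 20. The later library was higher in 77 of 81 pairings of ZT 12 to 20 with ZT 0 to 8 under chow and in 69 of 81 under the high-fat diet.

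Gpt2 was the most abundant of the 4 and had the smallest such ratio. Under chow its libraries held 50.3, 46.0 and 41.6 at ZT 0, 38.7, 36.4 and 38.8 at ZT 4, 38.5, 38.6 and 48.8 at ZT 8, 51.6, 52.7 and 49.6 at ZT 12, 49.95, 43.6 and 48.9 at ZT 16 and 46.9, 50.04 and 49.8 at ZT 20. Under the high-fat diet they held 38.0, 42.3 and 45.8 at ZT 0, 35.7, 35.4 and 37.4 at ZT 4, 46.1, 57.6 and 41.5 at ZT 8, 48.7, 50.4 and 55.4 at ZT 12, 54.0, 61.7 and 58.1 at ZT 16 and 47.9, 50.6 and 48.6 at ZT 20. The mean was lowest at ZT 4, 38.0 ± 1.36 under chow and 36.2 ± 1.09 under the high-fat diet (SD, n = 3). It was highest at ZT 12 under chow, 51.3 ± 1.56 or 1.35 times the lowest, and at ZT 16 under the high-fat diet, 57.9 ± 3.86 or 1.60 times the lowest. At ZT 16 the libraries ran from 54.0 to 61.7 under the high-fat diet and from 43.6 to 49.95 under chow. This gap was picked after the fact from 4 genes and 6 time points and was not tested. How many of all genes have such a gap at ZT 16 was not counted. The later library was higher in 71 of 81 pairings under chow and in 74 of 81 under the high-fat diet.

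The astrocyte list (10 of 10 genes with a row, none at 0 in all libraries) shared with Gpt2 its lowest time point in both diets and its highest under the high-fat diet. Its summed level ran from 2399 to 3820 rescaled FPKM over the chow libraries and from 2431 to 3988 over the high-fat libraries. The group mean was lowest at ZT 4 in both diets, 2669 and 2658, and highest at ZT 20 under chow (3297) and at ZT 16 under the high-fat diet (3650). Scores of 5 cell type lists served as covariates: astrocyte, oligodendrocyte, endothelial and mural, meninges and blood. With them the fitted 24 h difference of Gpt2 (log2) was 0.29 under chow and 0.57 under the high-fat diet. Without them it was 0.34 and 0.57.

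Plekhf1 stood out at ZT 12 in both diets. Under chow the libraries gave 3.72, 5.04 and 5.17 at ZT 0, 4.79, 3.57 and 4.55 at ZT 4, 5.71, 9.28 and 6.29 at ZT 8, 10.96, 12.9 and 11.6 at ZT 12, 6.21, 7.69 and 9.70 at ZT 16 and 7.45, 6.48 and 9.77 at ZT 20. Under the high-fat diet they gave 4.48, 4.66 and 7.26 at ZT 0, 4.38, 3.95 and 6.68 at ZT 4, 6.18, 7.07 and 5.30 at ZT 8, 9.58, 9.87 and 14.1 at ZT 12, 6.28, 7.32 and 6.81 at ZT 16 and 9.03, 6.57 and 9.51 at ZT 20. The ZT 12 mean was 11.8 ± 0.976 under chow and 11.2 ± 2.51 under the high-fat diet (SD, n = 3), 2.74 and 2.23 times the ZT 4 means of 4.30 ± 0.644 and 5.01 ± 1.47. The 3 libraries of ZT 12, picked as the highest time point, were above the other 15 libraries of their own diet, in chow and in high-fat feeding alike. At ZT 16 the values were back at 6.21 to 9.70 under chow and 6.28 to 7.32 under the high-fat diet, and overlapped those of ZT 20. The oligodendrocyte list (9 of 9 genes with a row, none at 0 in all libraries; 4269 to 8073 over the chow and 3948 to 8972 over the high-fat libraries) did not share this time course: its mean was highest at ZT 20 under chow and at ZT 0 under the high-fat diet, and lowest at ZT 16 and ZT 12.

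**Figure D1:**
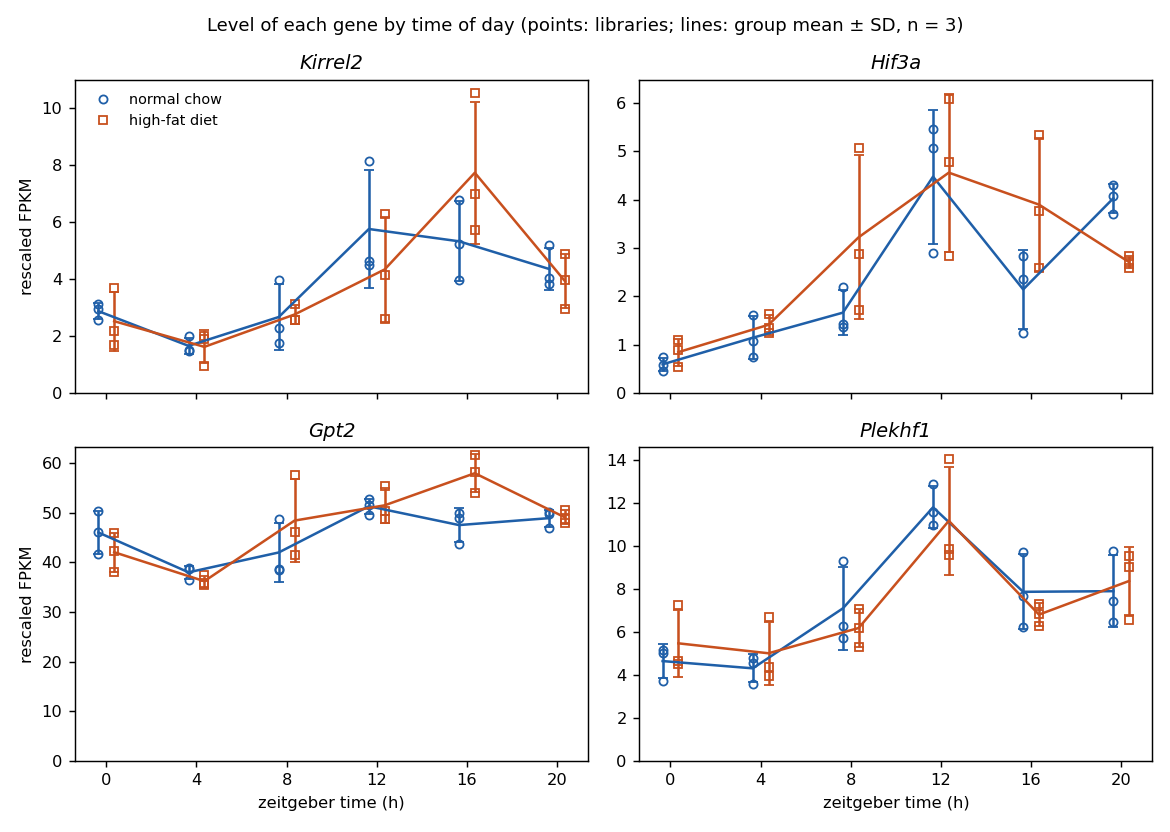
Rescaled FPKM (y axis, linear, from 0) of each gene against zeitgeber time in hours (x axis), with blue circles for chow libraries, orange squares for high-fat libraries and lines through group means ± SD (n = 3). Plekhf1 has a single high time point at ZT 12 in both diets, Kirrel2 is highest at ZT 12 under chow and ZT 16 under the high-fat diet, and the Gpt2 means stay between 36.2 and 57.9.

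Cosine curves of 24 h period fitted to the 18 libraries of each diet put the size and time of these patterns on 1 scale. Kirrel2 had nearly the same curve in both diets, with a peak-to-trough difference of 1.27 ± 0.194 (log2, SE) and a peak at ZT 15.7 ± 0.582 under chow, and 1.47 ± 0.231 at ZT 15.7 ± 0.598 under the high-fat diet. Hif3a had 1.34 ± 0.325 at ZT 14.6 ± 0.927 under chow and 1.49 ± 0.229 at ZT 13.3 ± 0.586 under the high-fat diet. These sizes correspond to 2.42-fold and 2.78-fold for Kirrel2 and to 2.53-fold and 2.81-fold for Hif3a, as folds of rescaled FPKM + 1. The likeness of the Kirrel2 curves depended on the setting. With the 5 cell type scores as covariates its sizes (log2) were 0.96 under chow and 1.63 under the high-fat diet.

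The fitted curve of Gpt2 was larger under the high-fat diet and, without covariates, that of Plekhf1 was larger under chow. Gpt2 had 0.34 ± 0.0857 at ZT 16.4 ± 0.968 under chow (1.26-fold) and 0.57 ± 0.0915 at ZT 15.0 ± 0.615 under the high-fat diet (1.48-fold). Plekhf1 had 1.11 ± 0.184 at ZT 13.8 ± 0.633 under chow (2.16-fold) and 0.77 ± 0.210 at ZT 14.4 ± 1.05 under the high-fat diet (1.70-fold). With the 5 cell type scores as covariates the Plekhf1 sizes were nearly equal, 1.05 under chow and 1.02 under the high-fat diet. Over all 15173 genes, the limma test of a difference in 24 h rhythm between the diets called 0% at an adjusted p under 0.05 (Benjamini-Hochberg). At an unadjusted p under 0.05 there were 2004 genes (13.2%), so the lack of calls does not show that rhythms were the same in both diets. No p is given for the 4 genes because their curves were used to choose them.

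**Figure D2:**
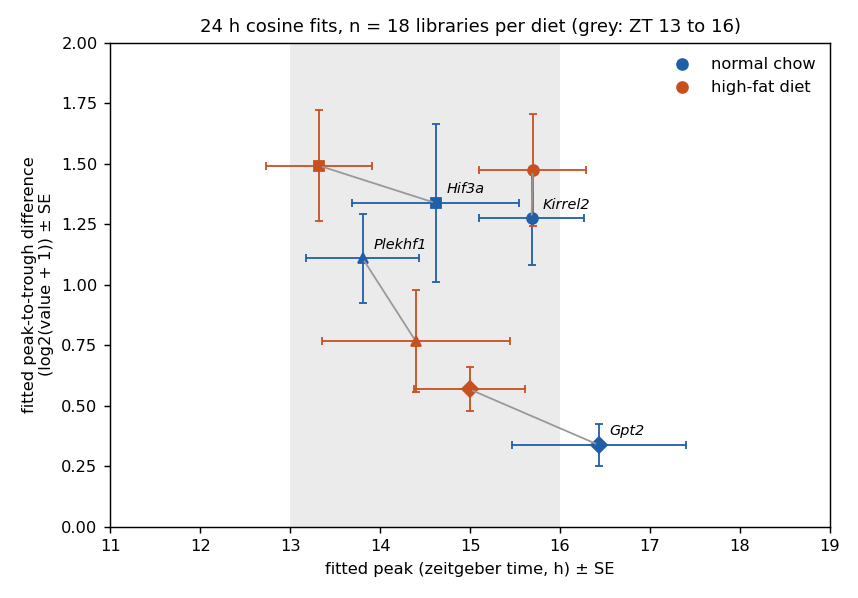
Fitted 24 h peak time (x axis, ZT in hours, ± SE) against the fitted peak-to-trough difference (y axis, log2(rescaled FPKM + 1), ± SE) for each gene, blue for chow and orange for the high-fat diet, n = 18 libraries each, with a grey line joining the diets of a gene. The grey band is ZT 13 to 16, and Gpt2 under chow, at ZT 16.4, is the only point outside it.

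Of the 4 genes, Kirrel2 and Plekhf1 were among those called rhythmic under chow (0.845% of genes tested) and Kirrel2, Hif3a and Gpt2 among those called under the high-fat diet (0.0728%), which restates how they were picked. A fitted peak at ZT 13 to 16 in both diets was found for 1.35% of the genes tested in both. There were 17 genes called in at least 1 diet with peaks at ZT 12 to 17 in both, of which 8 lay within ZT 13 to 16. Beside Kirrel2, Hif3a and Plekhf1 these were Ifit3b, Tsc22d3, Klf15, Lrrc8a and Cables1. Nearest inside the late edge, with all libraries, was Kirrel2 at ZT 15.7 in both diets. Just outside it were Gpt2 (ZT 16.4 and 15.0), Mfsd2a (16.4 and 15.9), Plin4 (15.9 and 16.2), Cdh19 (16.2 and 15.6) and the gene model Gm11627 (13.9 and 16.6). At the early edge, Ifit3b at ZT 14.1 and 13.2 was inside, and Nfkbia (13.6 and 12.4), Trib1 (14.1 and 12.4), Ifit3 (13.6 and 12.4) and Fmo2 (15.3 and 12.2) were outside under the high-fat diet.

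Whether the diet moved the level of the 4 genes over the whole day was independent of how they were chosen. The daily mean of Kirrel2 was 3.77 ± 1.82 rescaled FPKM under chow and 3.81 ± 2.34 under the high-fat diet (SD, n = 18), that of Hif3a 2.34 ± 1.60 and 2.77 ± 1.64, that of Gpt2 45.6 ± 5.42 and 47.5 ± 8.00 and that of Plekhf1 7.27 ± 2.81 and 7.17 ± 2.51. The ranges of the diets overlapped for every gene. None of the 4 passed the limma test of diet with time point as a factor, in which 0.0132% of 15173 genes were called, 0.00659% higher and 0.00659% lower under the high-fat diet.

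The estimate nearest to a difference was that of Hif3a, 0.20 ± 0.117 higher under the high-fat diet on the log2 scale (limma, n = 18 libraries per diet, p = 0.0957, adjusted p = 1.0), with a 95% interval of 0.974 to 1.35-fold. Gpt2 was 0.05 ± 0.0448 higher (n = 18, p = 0.287), with an interval of 0.971 to 1.10-fold. For Kirrel2 the difference was -0.03 ± 0.109 (n = 18, p = 0.792), with an interval of 0.841 to 1.14-fold, and for Plekhf1 it was 0.00 ± 0.0797 (p = 0.988), with an interval of 0.894 to 1.12-fold. The adjusted p was 1.0 for each. The Gpt2 estimate was 0.0255 without high-fat ZT 8 replicate 2 and 0.0135 with 5 cell type scores as covariates, and the Hif3a estimate was 0.31 with a pseudocount of 0.1. The interval was narrowest for Gpt2, the most abundant gene, and the sign of the Plekhf1 and Kirrel2 estimates changed with single libraries left out.

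**Figure D3:**
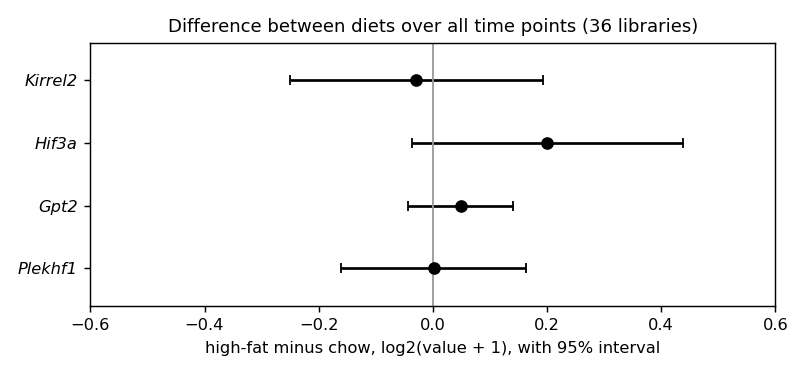
Difference of the high-fat diet minus chow over all time points for each gene (log2(rescaled FPKM + 1)), as the limma estimate with its 95% interval, n = 18 libraries per diet. All 4 intervals include 0, and that of Hif3a reaches furthest to the side of the high-fat diet, to 0.44.

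A component of 12 h period, which with 6 evenly spaced time points is independent of the 24 h curve, was tested over both diets. It is part of the spread around that curve, on which a 24 h rhythm call depends. No gene of the table was called by limma at an adjusted p under 0.05 (0% of 15173), with 1117 genes (7.36%) at an unadjusted p under 0.05. The 12 h term of Plekhf1 was 0.42 from peak to trough on the log2 scale, or 1.34-fold (limma, n = 36, p = 0.00478, adjusted p = 0.396). The term of Hif3a was 0.44 or 1.36-fold (n = 36, p = 0.0232, adjusted p = 0.575). Gpt2 had 0.13 (n = 36, p = 0.0970, adjusted p = 0.783) and Kirrel2 0.11 (p = 0.758, adjusted p = 0.950). With the 5 cell type scores as covariates the term was 0.24 for Plekhf1 (limma, n = 36, p = 0.201, adjusted p = 1.0) and 0.0245 for Gpt2, and with a pseudocount of 0.1 it was 0.73 for Hif3a (adjusted p = 0.446) and 0.18 for Kirrel2. The difference in this component between the diets gave, with n = 36, p from 0.169 for Gpt2 to 0.914 for Plekhf1 (limma, adjusted p = 0.999 for all 4), with 0% of genes called and 510 (3.36%) at an unadjusted p under 0.05.

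Genes with the most similar values were sought over the 36 libraries by Pearson's r of the log2 values, which mixes time of day with the makeup of each library and is given without a test. Closest to Kirrel2 were Glul (r = 0.834), the glutamine synthetase gene, Gpt2 itself (0.820), Mfsd2a (0.819), a lipid transporter gene, Fam107a (0.811) and Mertk (0.802), a receptor used in the uptake of dying cells. Closest to Hif3a were Zbtb16 (0.875), Tsc22d3 (0.865), Trib1 (0.831), Mertk (0.814) and Klf15 (0.802). Zbtb16, Tsc22d3 and Klf15 are transcription regulators known to respond to glucocorticoids.

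Closest to Gpt2 were Sdc4 (r = 0.857), a cell surface proteoglycan gene, Klf15 (0.856), Glul (0.851), Paqr8 (0.839) and Rin2 (0.838). Among the closest to Plekhf1 were Sgk1 (0.888), a kinase gene that responds to glucocorticoids, Tsc22d3 (0.855), Nfkbia (0.832), the gene of an NF-kappaB inhibitor, and Trib1 (0.806). Among the 4 genes the values were most alike for Kirrel2 and Gpt2 (r = 0.820 over 36 libraries) and for Hif3a and Plekhf1 (0.755), and least alike for Kirrel2 and Plekhf1 (0.539).

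The same pairs were then compared by how single libraries deviated from the mean of their own diet and time group. The fitted peak times of the genes do not use these deviations, but a rhythm call depends on their spread. Kirrel2 and Gpt2 deviated together (r = 0.445, n = 36, permutation p = 0.0143, adjusted over 6 pairs 0.0430), and so did Hif3a and Plekhf1 (r = 0.443, permutation p = 0.00934, adjusted 0.0430). Neither passed by Spearman's rho (0.381 and 0.406, permutation p = 0.0527 and 0.0240, adjusted 0.0978 for both). Without the 2 libraries farthest from the median, r was 0.467 and 0.403. Within chow it was 0.437 and 0.417, and within the high-fat diet 0.451 and 0.465. With the values as deposited, not rescaled, it was 0.176 and 0.268.

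Hif3a and Gpt2 had r = 0.509 (permutation p = 0.0285, adjusted 0.0571; rho = 0.392, adjusted 0.0978). That value came from the high-fat libraries, with r = 0.804 there and 0.0831 within chow, a difference that was not tested, and it was 0.306 without high-fat ZT 8 replicates 2 and 3. Kirrel2 and Hif3a (r = 0.387, permutation p = 0.0660, adjusted 0.0990; rho = 0.389, adjusted 0.0978) and Gpt2 and Plekhf1 (r = 0.231, permutation p = 0.271, adjusted 0.326; rho = 0.213, adjusted 0.366) did not pass. Kirrel2 and Plekhf1 had r = -0.0204 (permutation p = 0.927, adjusted 0.927; rho = -0.104, adjusted 0.628).

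Over the 36 libraries of both diets, Gpt2, Kirrel2 and Plekhf1 each had their highest correlation with another cell type list. Of 52 relations of the 4 genes with 13 marker lists, 15 had an adjusted permutation p under 0.05 by r and 11 by rho. Gpt2 deviated with the astrocyte list (r = 0.761, n = 36, permutation p = 9e-05, adjusted 0.00234; rho = 0.712, adjusted 0.00598), with the same sign in 27 of 36 libraries. Kirrel2 deviated with the striatum list (r = 0.733, permutation p = 7e-05, adjusted 0.00234; rho = 0.699, adjusted 0.00598), with the same sign in 30 of 36. Plekhf1 deviated with the oligodendrocyte list (r = 0.695, permutation p = 0.0003, adjusted 0.0052; rho = 0.632, adjusted 0.0139), with the same sign in 29 of 36.

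These 3 relations were positive within each diet, but none was the highest of its gene within the high-fat diet. There r was higher for Gpt2 with the oligodendrocyte list (0.765) and for Plekhf1 with the microglia list (0.786). Kirrel2 was higher there with the liver (0.704) and the endothelial and mural (0.666) lists. Within chow and within the high-fat diet, r was 0.825 and 0.708 for Gpt2 with the astrocyte list, 0.829 and 0.661 for Kirrel2 with the striatum list, and 0.678 and 0.709 for Plekhf1 with the oligodendrocyte list. Without the 2 libraries farthest from the median they were 0.709, 0.669 and 0.657. In the 31 libraries not rich in Alb or striatal transcripts they were 0.748, 0.807 and 0.631, and with values as deposited 0.793, 0.731 and 0.674.

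**Figure D4:**
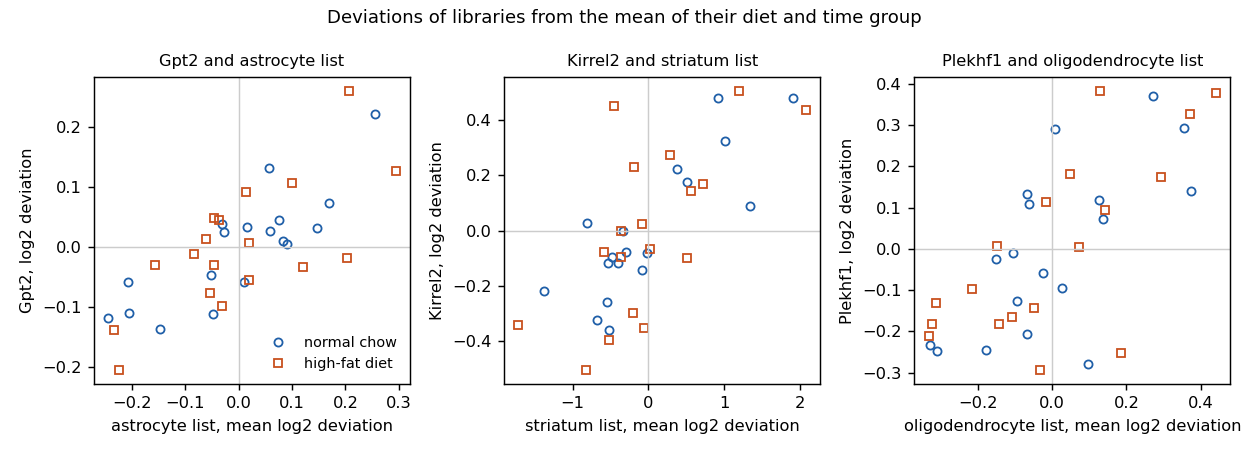
Deviation of each library from the mean of its diet and time group, for a gene (y axis, log2) against the mean of a marker list (x axis, log2), with blue circles for chow and orange squares for the high-fat diet, 36 libraries in each panel. The points of both diets run along the same diagonal for Gpt2 with astrocyte genes (r = 0.761), Kirrel2 with striatal genes (r = 0.733) and Plekhf1 with oligodendrocyte genes (r = 0.695).

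Kirrel2 also deviated with the endothelial and mural (r = 0.564), astrocyte (0.550), choroid plexus (0.550) and microglia (0.539) lists, and in the opposite direction to the SCN list (r = -0.467, permutation p = 0.0110, adjusted 0.0409; rho = -0.421, adjusted 0.0961). Its relations with the SCN, microglia and choroid plexus lists did not pass by rho. Gpt2 also deviated with the endothelial and mural (0.642), microglia (0.610), liver (0.531) and choroid plexus (0.519) lists. Plekhf1 also deviated with the meninges (0.588) and oligodendrocyte precursor (0.503) lists, the latter not by rho. Hif3a passed with the oligodendrocyte precursor list alone (r = 0.465), and that value was -0.033 with the values as deposited. None of these relations says in which cells a gene was expressed. The part of tissue makeup in the time courses was not tested beyond the fits without the rich libraries and with the 5 scores. The striatum, SCN, microglia and choroid plexus lists were not among those 5 scores.

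**Figure D5:**
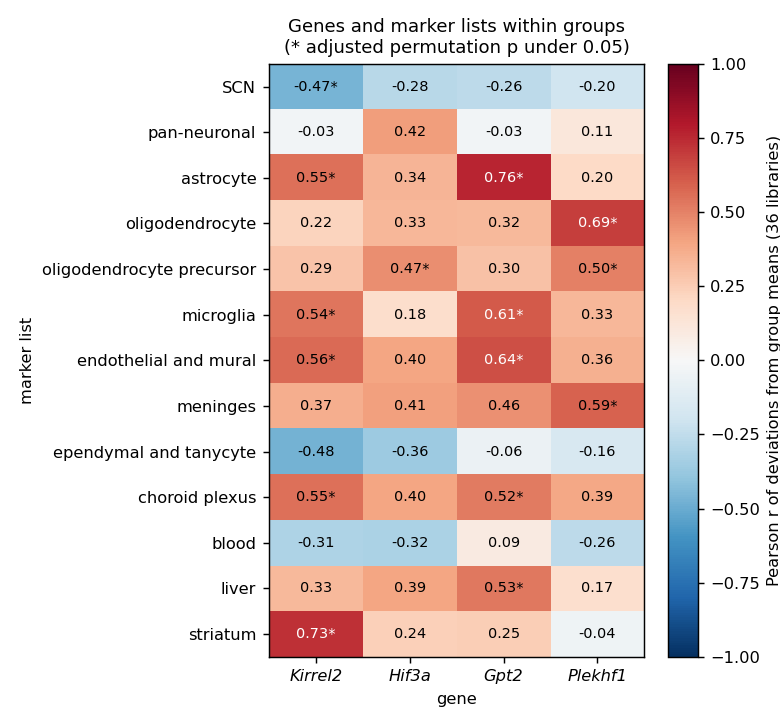
Pearson r between the deviations of each gene (x axis) and of each marker list (y axis) from the group means over 36 libraries, in colour from -1 in blue to 1 in red and as numbers, with an asterisk where the adjusted permutation p is under 0.05. The highest value is in the astrocyte row for Gpt2, the striatum row for Kirrel2 and the oligodendrocyte row for Plekhf1.

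The nearest relatives of the 4 genes that were tested did not pass the rhythm test in either diet. Over all genes tested, 0.845% were called under chow and 0.0728% under the high-fat diet. With shares this low, 0 calls in a short list do not set the 4 genes apart from their relatives. Kirrel, the first gene of the Kirrel family, had a mean of 4.05 rescaled FPKM under chow and 4.31 under the high-fat diet and a fitted 24 h size of 1.18-fold under chow (limma adjusted p = 0.642). Kirrel3 had 35.6 and 36.1 and 1.13-fold under chow (limma adjusted p = 0.50). Nphs1, the neighbour of Kirrel2, had a median of 0.375 (0.177 to 0.774) and was below the level tested. Of the 10 genes listed for the Kirrel and nephrin family, 7 were tested and 0 were called in either diet. The median fitted size was 0.23 under chow and 0.27 under the high-fat diet on the log2 scale, against 0.19 and 0.21 over all genes.

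Hif3a was the least abundant HIF alpha gene. Hif1a had 52.4 rescaled FPKM under chow and 51.4 under the high-fat diet, with a fitted size of 1.19-fold (limma adjusted p = 0.291) and 1.26-fold (adjusted p = 0.575). Epas1, which encodes HIF-2 alpha, had 101.7 and 101.8, with 1.16-fold (adjusted p = 0.520) and 1.29-fold (adjusted p = 0.625). Of 22 HIF subunits, hydroxylases and targets, 1 was called under chow, P4ha1, a collagen prolyl hydroxylase gene (1.62-fold, peak at ZT 19.7, limma adjusted p = 0.0156), and 0 under the high-fat diet. The shares called over all genes were 0.845% and 0.0728%. The median size was 0.21 and 0.28 on the log2 scale.

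Gpt, the gene of the cytosolic alanine transaminase, had 16.6 and 15.9 rescaled FPKM, below Gpt2, and a fitted size of 1.18-fold in both diets (limma adjusted p = 0.373 and 0.730). Of 20 genes tested for transaminases and glutamate handling, 0 were called in either diet (0.845% and 0.0728% of all genes), with a median size of 0.15 and 0.27. Plekhf2, the close relative of Plekhf1, had 7.46 and 7.48, near the level of Plekhf1, and 1.10-fold and 1.18-fold (adjusted p = 0.732 and 0.587). Of 25 genes of FYVE domains and endosomal PI3P, 0 were called in either diet, beside the same shares of all genes, with a median size of 0.20 and 0.22.

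The last list held genes known to respond to glucocorticoids, the adrenal steroid hormones that follow a daily rhythm. Of 24 genes tested, 6 were called under chow (0.845% of all genes), Mfsd2a, Plin4, Tsc22d3, Bcl6, Klf15 and Nfkbia. Under the high-fat diet 2 were called (0.0728% of all genes), Mfsd2a (limma adjusted p = 0.000112) and Klf15 (limma adjusted p = 0.00897). The median size was 0.56 under chow and 0.49 under the high-fat diet, against 0.19 and 0.21 over all genes. Fitted peaks at ZT 12 to 18 were found for 17 of the 24 under chow (70.8%, against 36.3% of all genes) and for 14 under the high-fat diet (58.3%, against 14.4%). Under chow this share was above that of all genes in every other list too, and highest in the Kirrel and nephrin family (71.4%). Under the high-fat diet the HIF list (27.3%) and the transaminase list were also above all genes. The Kirrel and nephrin list and the FYVE list were below. None of the 4 genes is on the glucocorticoid list, which was drawn up with earlier results of these data known. Its members Mfsd2a, Plin4, Tsc22d3, Klf15 and Nfkbia are also among the called genes with peaks at ZT 12 to 17 named above. The counts and shares of this list are therefore a description and no test. In all 5 lists, 0 genes were called for diet, for the 12 h component or for a difference in rhythm, and the smallest adjusted p for diet was 1.0.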

How the data were processed

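RNA of an SCN-enriched region was sequenced in 36 libraries, 18 per diet, from kits that keep strand per the labels' protocols. The authors used Trimmomatic, TopHat and Cufflinks with mm10 and GRCm38, per the submitters' processing notes; versions and annotation are not given in the sources used here. The deposited values are FPKM, as judged from the naming of Cufflinks and from their sums of 302899 to 432336 per library, since no header names a unit. Depth in reads was not stated; the relative depth and the fragments per library are estimates from the steps between low values of 412 single-transcript genes, and no counting interval was made.

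Each library was rescaled to a sum of 1000000 over the rows of both tables and taken to log2(value + 1). Rows with a mean of at least 1 were tested with limma 3.58.1 (R 4.3.3) with a mean-variance trend and Benjamini-Hochberg adjustment, two-sided: diet with time as a factor, the 12 h component and its difference between diets in a fit of 12 group means, and 24 h curves in each diet. Correlations used deviations from group means with 100000 permutations within groups, two-sided (scipy 1.17.1). The fits were checked on simulated data. Deviations from group means, taken over genes, correlated at -0.276 to 0.319 between same-numbered libraries of the 2 diets, with 9 of 18 pairs over 0.1. At ZT 12 they were 0.311, 0.285 and 0.319. Whether the numbers mark pairs was not settled by this, and they were not used as pairs.

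The genes and lists were chosen with earlier results of these data known. Named in the text are the 4 genes, the 5 gene models most like each (1 of those for Plekhf1 is not reported here), their nearest relatives, list genes called in a test and genes called with peaks at ZT 12 to 17 in both diets. Promoters come from RefSeq (GRCm38.p6), coordinates from GENCODE M21. Alternatives were the pseudocount, the filter, the scaling, the replicate block, tissue covariates, the variance prior, 24 h terms in place of time as a factor, and leaving out libraries.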

Additional observations from a re-analysis of the deposited data

How the results depend on the processing

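No diet or 12 h test of the 4 genes passed under any alternative, and the 24 h peaks of the 4 genes stayed between ZT 13.01 and 16.88, so the values below concern sizes and counts. The replicate block, for numbers not used as pairs in the main fits, gave 7 rhythmic genes under the high-fat diet (11 without it). It gave 6 genes with a 12 h component (0 without it) and changed no call of the 4 genes in the diet and 12 h tests. The Plekhf1 diet estimate of 0.00 was -0.0074 with values as deposited, -0.0018 with median-of-ratios factors, -0.0221 without the liver-rich library, -0.044 without Alb-rich libraries and -0.0396 without Alb-rich or striatum-rich ones, and -0.0311 to 0.0322 with each library left out; with each library left out that of Kirrel2 was -0.0756 to 0.0171, that of Gpt2 0.0255 to 0.0641 and that of Hif3a 0.145 to 0.241. Under the other alternatives the diet estimate was -0.0693 to -0.022 for Kirrel2, 0.192 to 0.313 for Hif3a and 0.0135 to 0.0658 for Gpt2, and the 12 h size was 0.0361 to 0.177 for Kirrel2, 0.426 to 0.728 for Hif3a, 0.0245 to 0.143 for Gpt2 and 0.243 to 0.474 for Plekhf1. With a pseudocount of 0.1 the 24 h sizes (log2) were 1.63 and 1.88 for Kirrel2 and 2.05 and 2.13 for Hif3a under chow and high-fat diet. As deposited they were 0.88 and 1.05 for Kirrel2 and 0.95 for Hif3a under the high-fat diet. Hif3a then had a mean under 1 under chow and over all libraries. Its chow curve and its diet and 12 h tests were therefore not made with values as deposited. With 5 cell type scores Kirrel2 had 0.96 under chow and 1.63 under the high-fat diet, and Plekhf1 had 1.05 and 1.02. The count of 11 rhythmic genes under the high-fat diet was 5 without a filter, 5 with the scores and 7 without Alb-rich or striatum-rich libraries, and 4 to 13 with each library left out (4 without ZT 4 replicate 1). The count of 128 under chow was 260 with median-of-ratios factors, 39 with the scores, 204 without Alb-rich and 433 without Alb-rich or striatum-rich libraries, and 48 to 162 with each library left out (48 without ZT 16 replicate 3). The 12 h count of 0 was 1 without striatum-rich and 1 without Alb-rich or striatum-rich libraries, and 0 to 7; the difference in 12 h component was likewise 1, 1 and 0 to 1. Of the pairs of genes, 2 passed by r and 0 by rho; Kirrel2 with Plekhf1 was 0.289 within the high-fat diet, Gpt2 with Plekhf1 -0.229 within chow, and Hif3a with the oligodendrocyte precursor list -0.033 as deposited. The Alb alternatives and those of the list correlations were chosen after seeing the data. The cause of these changes was not tested. The low values of Hif3a and Kirrel2 rest on few fragments.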
